A study of Mus musculus with 6 samples.

Results

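Fatty acid uptake and oxidation was examined as a set of 34 genes in adult mouse hearts lacking Jmjd2a (also called Kdm4a, a demethylase of histone H3 lysines) and in wild-type hearts. The rule takes named genes by their role, and each was read at its brightest probe. The set was chosen with earlier results of these data known. Its 8 steps run from uptake of fatty acids over the carnitine shuttle and beta-oxidation to the thioesterases and the regulation of fuel choice. Of the 34 genes, 33 had a probe on the arrays and 32 lay above background, among 11287 genes above background in all. Total heart RNA was measured on 6 Illumina bead arrays of 1 colour, paired by knockout and control into 3 pairs. The general line gave 1 Jmjd2a knockout heart and 1 wild-type heart, with no sex stated. The heart-specific line gave a female and a male Jmjd2a knockout heart and a female and a male wild-type heart. The promoter or Cre driver of the heart-specific deletion, the strain background and the ages beyond adult are not named in these sources. Each array has its own combination of line, genotype and sex, so none repeats the animal of another. The labels do not say how many animals gave each RNA. Every p-value given rests on how the knockout effect differed between pairs, in the gene itself and, with more weight, over all genes. In the heart-specific line that is the female against the male pair, so animal, sex and technical spread cannot be told apart. Over 3 pairs the line is mixed in as well. RNA of a whole heart holds all its cell types, and fewer cells of a type cannot be told apart from less RNA per cell.

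The adult heart draws most of its energy from long-chain fatty acids. Lipoprotein lipase frees them from circulating triglycerides, transporters and binding proteins bring them into the cardiomyocyte, and an acyl-CoA synthetase activates them. The carnitine shuttle carries the acyl groups into the mitochondrion, where each turn of beta-oxidation (a dehydrogenase, a hydratase, a second dehydrogenase and a thiolase) releases acetyl-CoA and passes electrons to the respiratory chain. Many of these genes are known targets of the nuclear receptor Ppara and of the coactivator Ppargc1a, and Ppara binds DNA together with Rxra at direct repeats of the half-site AGGTCA.

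The promoters of 4 genes are shown because both heart-specific knockouts lay below their own wild types for each of them, and because 2 of them (Acadvl and Acadm) carry a half-site while the other two do not. Each is the window of 250 bases before the annotated start, read 5′ to 3′ on the gene's strand from RefSeq (GRCm38.p6). Capitals mark the half-site AGGTCA or its reverse complement TGACCT. The windows lie at chr12:84009252-84009501 (+) for Acot1, chr4:107923590-107923839 (-) for Cpt2, chr11:70015429-70015678 (-) for Acadvl and chr3:153944644-153944893 (-) for Acadm.
Acot1: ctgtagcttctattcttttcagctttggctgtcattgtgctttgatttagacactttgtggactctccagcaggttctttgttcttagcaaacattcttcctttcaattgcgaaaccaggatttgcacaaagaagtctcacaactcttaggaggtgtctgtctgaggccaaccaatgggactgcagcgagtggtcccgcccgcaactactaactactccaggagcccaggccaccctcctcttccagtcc
Cpt2: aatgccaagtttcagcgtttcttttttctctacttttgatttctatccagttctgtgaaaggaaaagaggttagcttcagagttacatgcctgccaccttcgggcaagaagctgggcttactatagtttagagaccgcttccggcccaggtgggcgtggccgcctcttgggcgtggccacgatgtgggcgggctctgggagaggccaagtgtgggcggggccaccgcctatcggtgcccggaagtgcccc
Acadvl: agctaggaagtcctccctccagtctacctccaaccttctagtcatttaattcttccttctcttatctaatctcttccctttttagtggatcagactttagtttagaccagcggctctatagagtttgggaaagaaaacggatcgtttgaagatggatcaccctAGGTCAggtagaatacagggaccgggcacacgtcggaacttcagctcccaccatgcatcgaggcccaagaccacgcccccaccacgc
Acadm: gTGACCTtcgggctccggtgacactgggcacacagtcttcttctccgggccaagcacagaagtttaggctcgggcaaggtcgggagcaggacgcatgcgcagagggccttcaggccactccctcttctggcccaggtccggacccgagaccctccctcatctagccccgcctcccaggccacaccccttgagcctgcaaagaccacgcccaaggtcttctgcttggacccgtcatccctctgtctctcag
Windows of 28 of the 34 genes were in the table used, 31 windows in all, each of 250 bases before and 50 bases after the start. The half-site, searched on both strands, was found in 6 of these 31 windows (19.4%), against 14.02% of 32851 windows of all genes. The 6 genes were Acadm, Acadvl, Cd36, Cpt1a, Echs1 and Ucp3. The full repeat AGGTCANAGGTCA, which contains the half-site, was in 0 of the 31 windows and in 0.0335% of all windows. The estrogen-related receptor site TCAAGGTCA, which also contains the half-site, was in 0 of 31 and in 0.387% of all windows. Of the 13 genes lower in both heart-specific knockouts, 2 of the 11 with a window held the half-site, as did 3 of the 15 with a window among the 19 other genes above background. A match is a description of letters, and sites outside these windows were not searched.

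Jmjd2a itself could not be used to check the labels. Its brightest probe had intensities of 102, 107 and 114 in the general, female and male knockouts, against 115, 119 and 123 in the wild types of the same pairs, and it passed the array's background level on 1 of 6 arrays. The other Kdm4a probes passed it on 0. The background level, taken from probes of receptor genes of odour-sensing cells, was 121 to 124, and between 40.4% and 43.4% of the 45281 probes exceeded it. The label of the tissue fitted the data, since 11 of the 11 cardiomyocyte markers with a probe were above background. Of the white adipocyte markers, Plin1, Cidec, Lep, Retn and Fabp4 were at or below background, as were the brown adipocyte markers Ucp1, Elovl3 and Dio2. The other markers with a probe, Adipoq and Lipe (white) and Cidea and Cox7a1 (brown), were above it. The 6 arrays limit the precision of every value.

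None of the 32 measured genes passed a test at an adjusted p under 0.05 (limma, Benjamini-Hochberg over 11287 genes). Across the 3 pairs, 0 of 11287 genes passed, which is 0% of the genes, and 303 genes (2.68%) had an unadjusted p under 0.05, none of them an uptake or oxidation gene. The adjusted p of each of the 32 genes in that comparison was 0.9998. In the heart-specific line 0 of 11287 genes passed as well (0%), and adjusted limma p-values of the 32 genes lay between 0.975 and 0.998. The knockout effect differed between the heart-specific and the general line for 9 of 11287 genes (0.0797%), again with none of the 32 among them (adjusted limma p from 0.746 to 0.997). With 3 pairs, an exact two-sided test of a single gene by sign flips cannot give a p below 0.25. All values that follow are therefore differences that missed the test, described pair by pair.

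In the heart-specific line the differences lay mostly below 0, and in the general line mostly above 0. Each difference is the log2 intensity of the knockout minus that of its own wild type. The median over the 32 genes was 0.14 in the general line, -0.16 for the female pair and -0.18 for the male pair, while the medians over all 11287 genes were 0.017, -0.0051 and -0.0011. In the general pair 22 of 32 genes were higher in the knockout, 9 lower and 1 equal, against 53.4% higher and 46.5% lower among all genes. In the female pair 25 were lower in the knockout and 7 higher, against 51.1% and 48.8% of all genes. In the male pair 19 were lower and 12 higher, against 50.1% and 49.8% of all genes.

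Counted over both heart-specific pairs, 13 of the 32 genes were lower in both knockouts than in their own wild types (background 25.8%), and 1 was higher in both (background 24.5%). The 13 were Slc27a1, Cpt2, Acadvl, Acadm, Acads, Hadhb, Acaa2, Ech1, Decr1, Etfa, Acot1, Acot2 and Mlycd, and the 1 higher was Acadl. For 10 of the 13 both knockout values lay below both wild-type values, which held for 15.5% of all genes, and the reverse held for 0 of 32 (background 13.9%). The 3 of the 13 whose groups overlapped were Hadhb, Acot1 and Acot2. An unadjusted limma p under 0.05 was reached by 5 genes in the lower direction (Slc27a1, Cpt2, Acaa2, Decr1 and Acot1, background 2.26%) and by 0 in the higher direction (background 2.21%). These 5 had unadjusted p-values no smaller than 0.00596 and an adjusted limma p of 0.975 each.

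The size of the differences was modest. No gene of the set differed by 1 or more in any pair, and the largest difference was -0.83, for Acadvl in the male pair. In the general pair alone 0.576% of all genes differed by 1 or more, and their share over any pair was not counted. A difference of at least 0.5 in some pair, which is a change of 1.41-fold, was seen in 10 of the 32 genes (12.0% of all genes). The share over all genes includes dim genes, whose differences background shrinks. In 29 of 32 genes the mean heart-specific difference was smaller than the range of the 3 wild-type arrays, near the share of 88.9% over all genes.

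**Figure D1:**
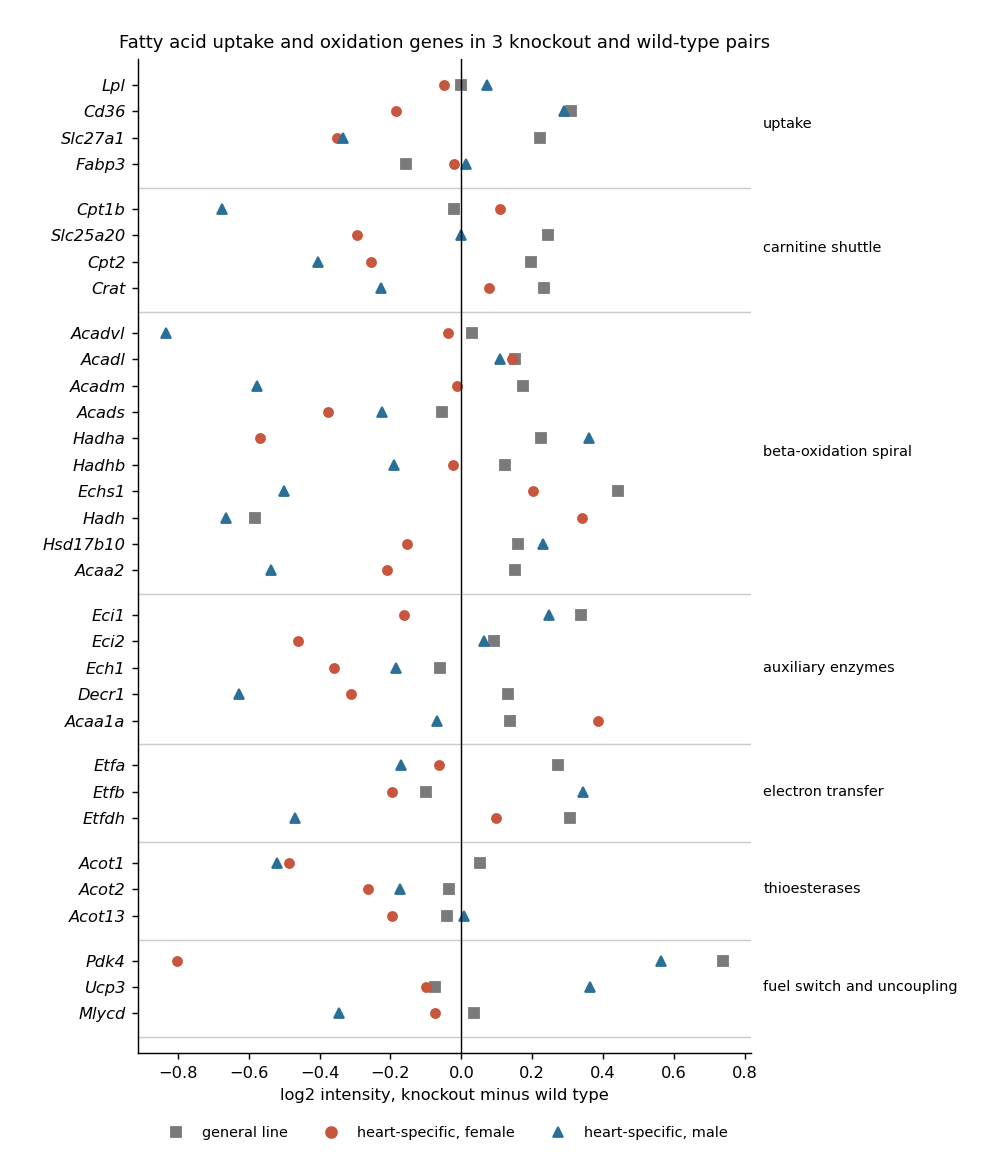
Log2 intensity, knockout minus wild type, of each of the 32 genes above background (rows, grouped by step) in the general pair (grey squares), the female heart-specific pair (red circles) and the male heart-specific pair (blue triangles), 1 point per pair and no error bars. Red and blue points lie mostly left of 0 and grey points mostly right of it, with 13 genes left of 0 in both heart-specific pairs and no point beyond 1 in size.

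The uptake step holds 4 genes, and only Slc27a1 was lower in both heart-specific knockouts. Throughout, the values of a genotype are given in the order general, female, male. Slc27a1 encodes the fatty acid transport protein FATP1. Its intensity was 681, 506 and 412 in the knockouts, against 584, 646 and 519.6 in the wild types. The general knockout was the highest of all 6 arrays and both heart-specific knockouts were the lowest, so that the groups overlapped over 3 pairs and were apart within the heart-specific line. The differences were 0.22, -0.35 and -0.34, with a heart-specific mean of -0.34 ± 0.011 (SD, n = 2 pairs) and an adjusted limma p of 0.975. The difference between lines (heart-specific minus general knockout effect) was -0.57 on the log2 scale (adjusted p = 0.746, limma).

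Cd36, the main fatty acid translocase of the muscle cell surface, was measured close to background by its 1 probe. It gave 189.5, 155 and 213 in the knockouts, against 153, 176 and 174 in the wild types. The groups overlapped, with the general and male knockouts high and the female knockout low, and the differences were 0.31, -0.18 and 0.29. Such dim values hold much background, which shrinks their differences.

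Lpl, the lipase that frees fatty acids from lipoproteins, and Fabp3, the fatty acid binding protein of heart muscle, lay near the top of the arrays' scale. The Lpl intensity was 50079, 47404 and 48286 in the knockouts, against 50079, 49016 and 45883 in the wild types. Fabp3 had 39488, 38781 and 39341 in the knockouts, against 43993, 39341 and 39006 in the wild types. Differences of both genes stayed between -0.16 and 0.074, and a change in abundance of such bright transcripts may be compressed on this scale. Activation was not covered, because the annotation used names no probe for Acsl1, the main long-chain acyl-CoA synthetase of the heart.

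Of the carnitine shuttle, Cpt2 was lower in both heart-specific knockouts, and 3 other measured genes were not. Cpt2, the inner-membrane carnitine palmitoyltransferase, had 8393, 8911 and 9331 in the knockouts, against 7329, 10642 and 12345 in the wild types. The 3 knockouts were close together, while the wild types held the lowest and the highest value of all arrays. The differences were 0.20, -0.26 and -0.40, and the heart-specific mean was -0.33 ± 0.10 (SD, n = 2 pairs, adjusted p = 0.975, limma). Of its 3 probes, the 1 not following this pattern in females gave a difference of 0.18 there and -0.20 in males. At that probe the female wild type was the lowest of all arrays (3112).

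Cpt1b, the muscle form of the outer-membrane transferase that commits fatty acids to oxidation, had 5413, 5940.1 and 4709 in the knockouts, against 5490.3 (general), 5503 (female) and 7526 (male) in the wild types. Only the male pair stood apart, with a difference of -0.68, against 0.11 in the female and -0.020 in the general pair. The other form, Cpt1a, which prevails in liver, did not exceed background on any of the 6 arrays with either probe and was not tested.

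Slc25a20, the carnitine-acylcarnitine carrier, had 7526, 6957 and 7720.2 in the knockouts, against 6352, 8535 and 7720.2 in the wild types. The male pair gave the identical value on both arrays, and the general and female pairs differed by 0.24 and -0.29. Its dimmer probe gave 0.035, 0.017 and -0.47, so the male pair was level and the female pair lower at the brightest probe only. Crat, the carnitine acetyltransferase that buffers mitochondrial acetyl-CoA, had differences of 0.23, 0.077 and -0.23 in the 3 pairs, with overlapping groups.

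The 10 genes of the beta-oxidation spiral include the 4 chain-length-specific acyl-CoA dehydrogenases of the first reaction, of which 3 were lower in both heart-specific knockouts and 1 higher. Acadvl, the very-long-chain enzyme, had 8982, 9737 and 8779 in the knockouts, against 8794, 10005 and 15637 in the wild types. The male wild type was far above the other 5 arrays, which lay between 8779 and 10005. The differences were 0.030, -0.039 and -0.83, so the heart-specific mean of -0.44 ± 0.56 (SD, n = 2 pairs, adjusted p = 0.975, limma) rested on the male pair. At a dimmer Acadvl probe the male (6754) and general (6300) wild types were highest and the female wild type was lowest (3292).

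Acadm, the medium-chain enzyme, had 29641, 33447 and 26657 in the knockouts, against 26302, 33749 and 39731 in the wild types. Here too the female pair was nearly level (-0.013) and the male pair apart (-0.58), with a difference of 0.17 in the general pair. Acads, the short-chain enzyme, had 1461, 1176 and 1238 in the knockouts, against 1517, 1527 and 1445 in the wild types. Its wild types were within 0.080 of each other on the log2 scale, and its knockouts were lower in all 3 pairs (-0.054, -0.38 and -0.22). A dimmer Acads probe gave 0.47, 0.10 and -0.49, with the opposite sign in the general and female pairs. At the brightest probe the general knockout lay above the male wild type, so the 3 knockouts and the 3 wild types overlapped. The heart-specific mean of Acads was -0.30 ± 0.11 (SD, n = 2 pairs, adjusted p = 0.975, limma).

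Acadl, the long-chain enzyme, was the only one of the 32 genes that was higher in all 3 pairs (background 11.3%). It had 5503, 6658 and 7187 in the knockouts, against 4951, 6033 and 6658 in the wild types, with differences of 0.15, 0.14 and 0.11. The groups overlapped, and over its 3 probes the mean heart-specific difference was -0.075, since a dimmer probe gave -0.76 in males. Genes lower in all 3 pairs were Acads, Ech1 and Acot2 (3 of 32, background 10.5%). No gene had its 3 knockout arrays all below (background 3.06%) or all above (background 3.14%) the 3 wild-type arrays.

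The middle reactions of a turn were less uniform. Echs1, the short-chain enoyl-CoA hydratase, had 6845, 6169 and 5109.9 in the knockouts, against 5043, 5368 and 7229 in the wild types (differences 0.44, 0.20 and -0.50). The general and female knockouts were above their wild types and the male knockout was below its own. Hadh, the short-chain hydroxyacyl-CoA dehydrogenase, had 356, 306 and 353 in the knockouts, against 534, 241 and 559.8 in the wild types. Its wild types spread over 1.21 on the log2 scale, and its differences of -0.58, 0.34 and -0.66 included the only value of -0.3 or below in the general pair (1 of 32, background 8.34%). A second Hadh probe, close to background, gave 0.070, -0.15 and -0.27, with the opposite sign in the general and female pairs. Hsd17b10, a mitochondrial hydroxyacyl-CoA dehydrogenase, gave 0.16, -0.15 and 0.23.

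Hadha and Hadhb encode the paired subunits of the mitochondrial trifunctional protein, each read from 1 probe. The Hadha probe was far dimmer than that of Hadhb and holds more background. Unlike differences at these probes therefore do not show that the subunits differed in regulation. The Hadha probe gave 399.9, 359 and 496 in the knockouts, against 342, 533 and 387 in the wild types. Its differences of 0.23, -0.57 and 0.36 put the female pair opposite to the other two. Hadhb had 19520.2 (general), 21930.2 (female) and 18681 (male) in the knockouts, against 17915, 22303 and 21311 in the wild types, with differences of 0.12, -0.024 and -0.19.

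Acaa2, a mitochondrial thiolase of the last reaction of a turn, had 8826, 8967 and 9201 in the knockouts, against 7955, 10379 and 13359 in the wild types. At its brightest probe, as at that of Cpt2, the knockouts were close together, and the heart-specific wild types were above them with the general wild type below. The differences were 0.15, -0.21 and -0.54, with a heart-specific mean of -0.37 ± 0.23 (SD, n = 2 pairs, adjusted p = 0.975, limma). Of its 4 probes, all were lower in the male knockout (-0.81 to -0.54), and 1 was higher in the female knockout (0.41). That probe had the general wild type highest (4473) and the female wild type lowest (1928) of all arrays.

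Auxiliary enzymes handle unsaturated fatty acids and peroxisomal chains, and 2 of the 5 (Ech1 and Decr1) were lower in both heart-specific knockouts. Decr1, the mitochondrial dienoyl-CoA reductase, had 1106, 1040.5 and 1077 in the knockouts, against 1009, 1291 and 1664 in the wild types. The knockouts spread over only 0.088 on the log2 scale and the wild types over 0.72. The differences were 0.13, -0.31 and -0.63, with a heart-specific mean of -0.47 ± 0.22 (SD, n = 2 pairs, adjusted p = 0.975, limma) and a difference between lines of -0.60 (adjusted p = 0.766, limma).

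Ech1, the dienoyl-CoA isomerase, had 27777, 22943 and 23451 in the knockouts, against 28953, 29408 and 26657 in the wild types. Its differences were -0.060, -0.36 and -0.18, and only the general knockout reached into the range of the wild types. Eci1 and Eci2, enoyl-CoA isomerases, were lower only in the female pair. Eci1 gave 0.34, -0.16 and 0.25 in the 3 pairs, and Eci2 0.093, -0.46 and 0.065. Acaa1a, a peroxisomal thiolase, gave 0.14, 0.38 and -0.070, and its female knockout was the highest of the 6 arrays at 4290.5.

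**Figure D2:**
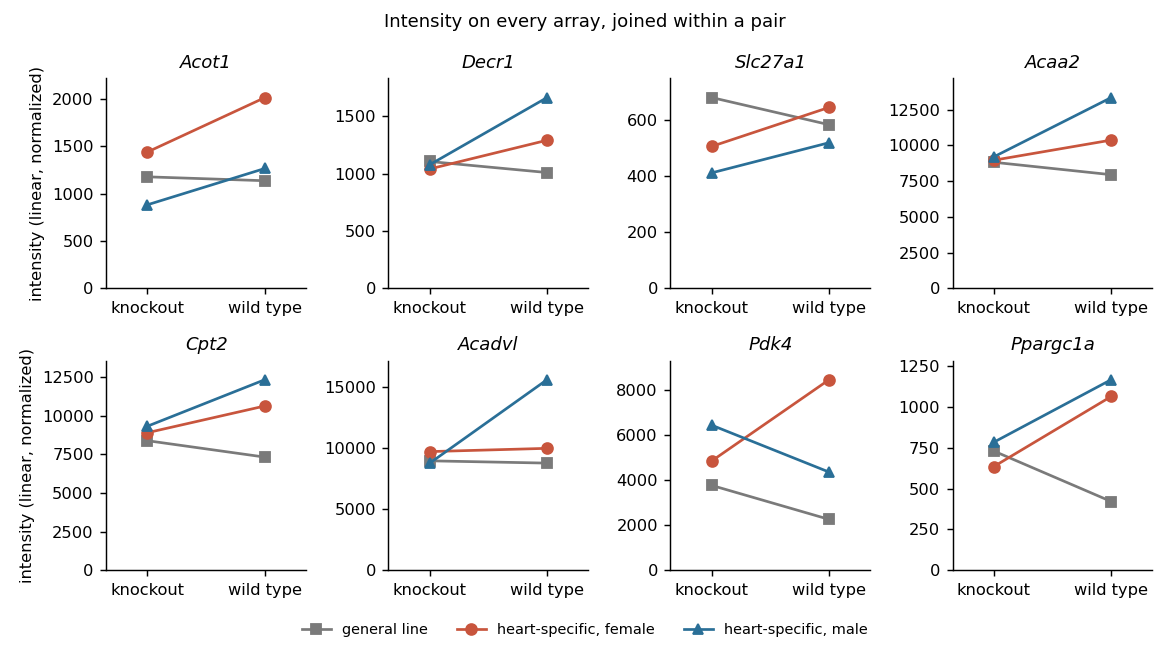
Linear intensity of 8 genes in the knockout (left) and wild-type (right) array of each pair, joined by lines, with grey squares for the general line, red circles for female and blue triangles for male heart-specific hearts. In Acot1, Decr1, Slc27a1, Acaa2, Cpt2 and Ppargc1a the red and blue lines run upward to the wild type and the grey line does not, while Acadvl differs mainly in the male pair and Pdk4 only in the female pair in that direction.

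The electron transfer step passes electrons of the dehydrogenases on to ubiquinone. Etfa, a subunit of the electron transfer flavoprotein, had 27111, 29641 and 26585 in the knockouts, against 22444, 30982 and 29927 in the wild types. It was higher in the general knockout (0.27) and slightly lower in the female (-0.064) and male (-0.17) knockouts, with all 3 of its probes lower in both heart-specific pairs. The partner subunit Etfb gave -0.10, -0.20 and 0.34, and the ubiquinone oxidoreductase Etfdh 0.31, 0.10 and -0.47. The male pair thus put the subunits of the flavoprotein in opposite directions. Dimmer Etfdh probes were all lower in the female knockout (-0.45 to -0.034), and their male differences ran from -0.42 to 0.10.

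Thioesterases split acyl-CoA and can return free fatty acids to the cell, and Acot1 had the lowest unadjusted p of the set in the heart-specific line. Its intensity was 1179, 1441 and 883 in the knockouts, against 1138, 2017 and 1268 in the wild types. Each heart-specific knockout was well below its own wild type, yet the female knockout was above the male wild type, so the groups overlapped. The differences were 0.051, -0.49 and -0.52, with a heart-specific mean of -0.50 ± 0.026 (SD, n = 2 pairs, adjusted p = 0.975, limma) and a difference between lines of -0.55 (adjusted p = 0.756, limma). A second Acot1 probe gave -0.61 in females and -0.21 in males.

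Acot2, the mitochondrial relative of the cytosolic Acot1, had 230.4, 238 and 193 in the knockouts, against 236, 286 and 218 in the wild types. Its heart-specific mean was -0.22 ± 0.064 (SD, n = 2 pairs, adjusted p = 0.975, limma), and -0.36 once background was subtracted with normexp at an offset of 16. Acot1 and Acot2 are close copies next to each other on chromosome 12, so a probe of one may also bind the other's transcript, and their values are not independent. Acot13, another thioesterase, gave -0.041, -0.20 and 0.0081.

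Among the genes of fuel choice, Pdk4 varied widely between arrays. Pdk4, the kinase that shuts off pyruvate dehydrogenase when fatty acids are burned, had 3779.6 (general), 4862 (female) and 6456 (male) in the knockouts, against 2266, 8479.8 and 4368 in the wild types. Its wild types spread over 1.90 and its knockouts over 0.77 on the log2 scale, with the female wild type highest and the general wild type lowest of all 6 arrays. The differences of 0.74, -0.80 and 0.56 averaged 0.17 ± 0.84 (SD, n = 3 pairs, adjusted p = 0.9998, limma). Ucp3, a mitochondrial carrier induced by fatty acids, was dim and gave -0.073, -0.10 and 0.36. Mlycd, which breaks down the Cpt1 inhibitor malonyl-CoA, had 2105, 2412 and 1937 in the knockouts, against 2054, 2539 and 2459.7 in the wild types, with differences of 0.035, -0.074 and -0.34.

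By step, the male pair had the lowest median in the spiral, the carnitine shuttle and electron transfer, and the female pair in uptake, the auxiliary enzymes, the thioesterases and fuel choice. Medians of the spiral were 0.15 (general), -0.032 (female) and -0.36 (male), and those of the carnitine shuttle 0.21, -0.089 and -0.32. Auxiliary enzymes had medians of 0.13, -0.31 and -0.070, and the thioesterases -0.036, -0.26 and -0.17. Uptake genes had medians of 0.11, -0.12 and 0.043. The electron transfer genes had medians of 0.27, -0.064 and -0.17, and those of fuel choice 0.035, -0.10 and 0.36.

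The general and the heart-specific lines ran opposite ways in 10 genes that were higher in the general knockout and lower in both heart-specific knockouts (background 15.3%). These were Slc27a1, Cpt2, Acadvl, Acadm, Hadhb, Acaa2, Decr1, Etfa, Acot1 and Mlycd, and the reverse pattern was seen in 0 genes (background 13.1%). In the general pair, 5 genes were higher by at least 0.3 (Cd36, Echs1, Eci1, Etfdh and Pdk4, background 9.29%), with 1 array per genotype and no test. In the test of the difference between lines, Slc27a1, Decr1 and Acot1 had an unadjusted limma p under 0.05 with the heart-specific effect below the general one (3 of 32, background 3.15%), and 0 had one above it (background 3.28%).

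Over the 3 arrays of a genotype, the wild types spread more widely than the knockouts, both in these genes and over all genes tested. Each gene was set against its own mean over the 6 arrays, which takes out the difference in level between genes. Background still shrinks the deviations of dim genes. The median of these log2 deviations over the 32 genes was -0.038 in the general, -0.037 in the female and -0.077 in the male knockout, against -0.18 in the general, 0.14 in the female and 0.068 in the male wild type. The 3 knockouts thus lay within a narrow band, with the general wild type below it and both heart-specific wild types above it. In all genes tested the same medians stayed between -0.017 and 0.010. All these values are of the brightest probe. At a dimmer probe each of Acaa2, Cpt2 and Acadvl the female wild type was lowest, while another of Acaa2 and of Cpt2 kept the order.

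The highest of the 6 arrays was a heart-specific wild type for 23 of the 32 genes (71.9%, against 40.2% of all genes), the female one in 13 and the male one in 10. The lowest was the general wild type for 15 genes (46.9%, against 23.1% of all genes). Tricarboxylic acid cycle genes shared this order in part, with 12 of 16 (75%) highest in a heart-specific wild type and 7 of 16 lowest in the general wild type. Of those 12, however, 10 were highest in the male and 2 in the female wild type. In respiratory complex I, 12 of 33 genes (36.4%) were highest in a heart-specific wild type and 7 of 33 (21.2%) lowest in the general one. The range over the 3 arrays of a genotype was wider in the wild types than in the knockouts for 24 of 32 genes, against 65.4% of all genes. Its median was 0.31 in the knockouts and 0.44 in the wild types over the 32 genes, and 0.23 in the knockouts and 0.31 in the wild types over all genes. The general wild type was, in the median gene of the set, 0.26 below the mean of the heart-specific wild types, while the general knockout was 0.049 above the mean of the heart-specific knockouts.

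**Figure D3:**
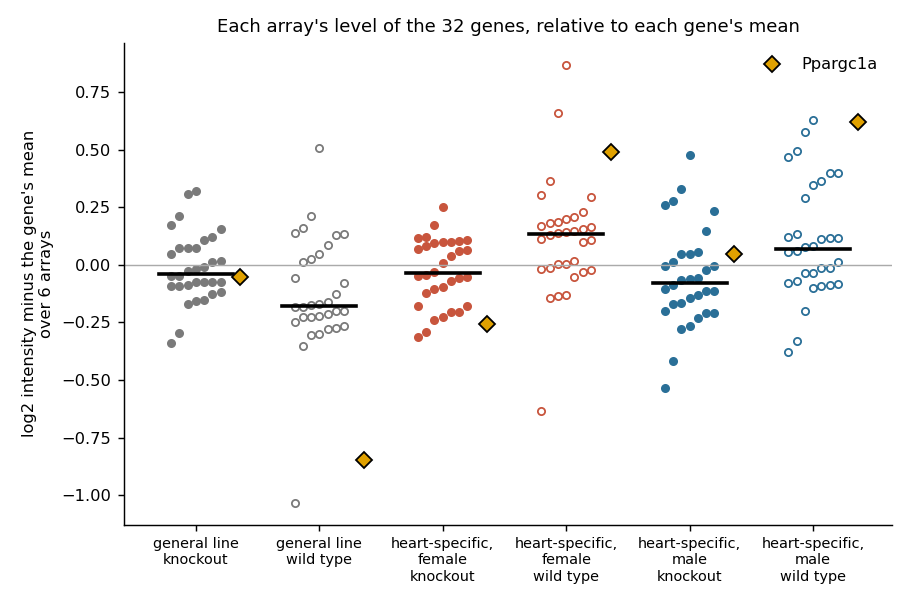
Log2 intensity of each of the 32 genes on each array minus that gene's mean over the 6 arrays, with knockouts as filled and wild types as open circles, the black bar at the median of an array and Ppargc1a, which is not one of the 32, as a yellow diamond. The knockout bars lie at -0.038, -0.037 and -0.077, the general wild-type bar at -0.18 and the heart-specific wild-type bars at 0.14 and 0.068.

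Markers of cell types moved with some of these arrays. The summed intensity of the 11 cardiomyocyte markers was 306039 to 320928 in the knockouts and 292114 to 344413 in the wild types, with the general wild type lowest and the male wild type highest. The general wild type was the lowest array for 7 of the 11, and 10 of the 11 were lower in the male knockout (50.1% of all genes), with a median of -0.25. Medians of the cardiomyocyte markers were 0.063 in the general and 0.016 in the female pair. The 7 of 8 atrial markers above background (all but Bmp10) summed to 20567 to 27011 in the knockouts and 13941 to 43746 in the wild types, with the general wild type highest. The 5 of 8 skeletal muscle markers above background (all but Myh1, Myh4 and Tnnt3) summed to 11895 to 16259 in the knockouts and 10777 to 24999 in the wild types, where the general wild type had the highest sum although 4 of the 5 were higher in the general knockout. Atrial medians were -1.05 (general), 0.43 (female) and 0.078 (male). The part of these cell types in the differences was not tested. Fibroblast marker sums were 22193 to 22955 in knockouts and 21459 to 28117 in wild types (8 of 8 markers), and endothelial sums 12859 to 18456 in knockouts and 12034 to 16765 in wild types (10 of 10). Macrophage sums were 5106 to 6421 in knockouts and 4805 to 6974 in wild types (7 of 7 markers with a probe), and red blood cell sums 44186 to 48739.8 in knockouts and 35503 to 42437 in wild types (4 of 4 with a probe). The medians of the red blood cell markers were -1.09 (general), 0.48 (female) and 0.38 (male), and 3 of 4 were lower in the general knockout, against the order of the sums. Of the 9 genes that differed between lines, 4 are such markers: Alas2 and Slc4a1 of red blood cells, and Myl4 and Myl7 of atrial muscle, chosen for mention after their values were seen. Each had a heart-specific effect above the general one, by 2.56 (Myl7) to 4.29 (Myl4) on the log2 scale (adjusted limma p from 0.0170 to 0.0496). The 2 white adipocyte markers above background (Adipoq and Lipe) summed to 257 to 270.1 in knockouts and 243 to 303 in wild types. The 2 brown adipocyte markers above it (Cidea and Cox7a1) summed to 39580.3 to 49879 in knockouts and 37041 to 44563 in wild types. With Ucp1, Elovl3 and Dio2 not above background, this sum does not show brown fat in the hearts. The skeletal muscle sum, with Myh1, Myh4 and Tnnt3 not above background, likewise does not show skeletal muscle.

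Other genes of the pathway were taken from lists of its neighbouring steps, 73 of 85 genes above background. None of the 73 passed a test in either direction (0 of 73 in each of the 3 comparisons). Their medians were 0.090 (general), -0.035 (female) and -0.027 (male), and 23 of 73 were lower and 13 of 73 higher in both heart-specific knockouts (background 25.8% and 24.5%). Peroxisomal oxidation genes had medians of 0.15, 0.096 and 0.054 (10 of 16 above background), so that none of the 3 pairs had a median below 0. Genes of triglyceride storage and lipolysis had medians of -0.016, -0.14 and -0.018 (16 of 16). Other uptake and activation genes had medians of 0.18, -0.059 and 0.082 (12 of 13), and malonyl-CoA synthesis genes 0.038, 0.082 and -0.22 (7 of 8). The other mitochondrial oxidation and thioesterase genes had medians of 0.031, -0.056 and -0.13 (11 of 14).

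The coactivator Ppargc1a followed the array pattern of the oxidation genes with larger values. Its intensity was 729.5 (general), 634 (female) and 783 (male) in the knockouts, against 421, 1063 and 1166 in the wild types. The 3 knockouts lay between the low general wild type and both high heart-specific wild types. Its differences were 0.79, -0.75 and -0.57, with a heart-specific mean of -0.66 ± 0.12 (SD, n = 2 pairs, adjusted p = 0.975, limma) and a difference between lines of -1.45 (adjusted p = 0.152, limma). Its relative Ppargc1b was higher in the knockout of every pair, by 0.29, 0.57 and 0.40 (mean 0.42 ± 0.14, SD, n = 3 pairs, adjusted p = 0.9998, limma).

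Of the 17 regulators above background, 6 were lower in both heart-specific knockouts and 3 higher (background 25.8% and 24.5%). Ppara, the fatty-acid-sensing nuclear receptor, was dim and gave 0.14, 0.043 and -0.027, and the estrogen-related receptor gene Esrra gave 0.0071, -0.0039 and 0.43. The 17 regulators (of 18 listed) had medians of 0.10, -0.0039 and -0.029. Acacb, which makes malonyl-CoA at the mitochondrion, gave 0.038, 0.23 and -0.58, and the carnitine importer Slc22a5 gave 0.30, -0.024 and 0.082. Angptl4, a secreted inhibitor of Lpl, had 199, 207 and 419 in the knockouts, against 464, 377 and 333 in the wild types, with differences of -1.22, -0.86 and 0.33. The lipid droplet protein gene Plin2 gave -0.16, -0.24 and -0.044, and the triglyceride lipase gene Pnpla2 0.068, -0.17 and -0.22, with its 3 knockouts between the general and the heart-specific wild types as for Ppargc1a.

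Neighbouring mitochondrial pathways did not share 1 pattern. Tricarboxylic acid cycle genes (16 of 17 above background) had medians of 0.13 (general), 0.0077 (female) and -0.21 (male), with 7 lower and 2 higher in both heart-specific knockouts. Genes of respiratory complex I (33 of 36) had medians of 0.13, -0.034 and 0.22, with 3 lower and 11 higher in both, where 25.8% of all genes were lower and 24.5% higher. The male pair thus had the oxidation and citrate cycle genes below 0 and complex I above it. None of these genes passed a test, and the difference between the lists was not tested.

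**Figure D4:**
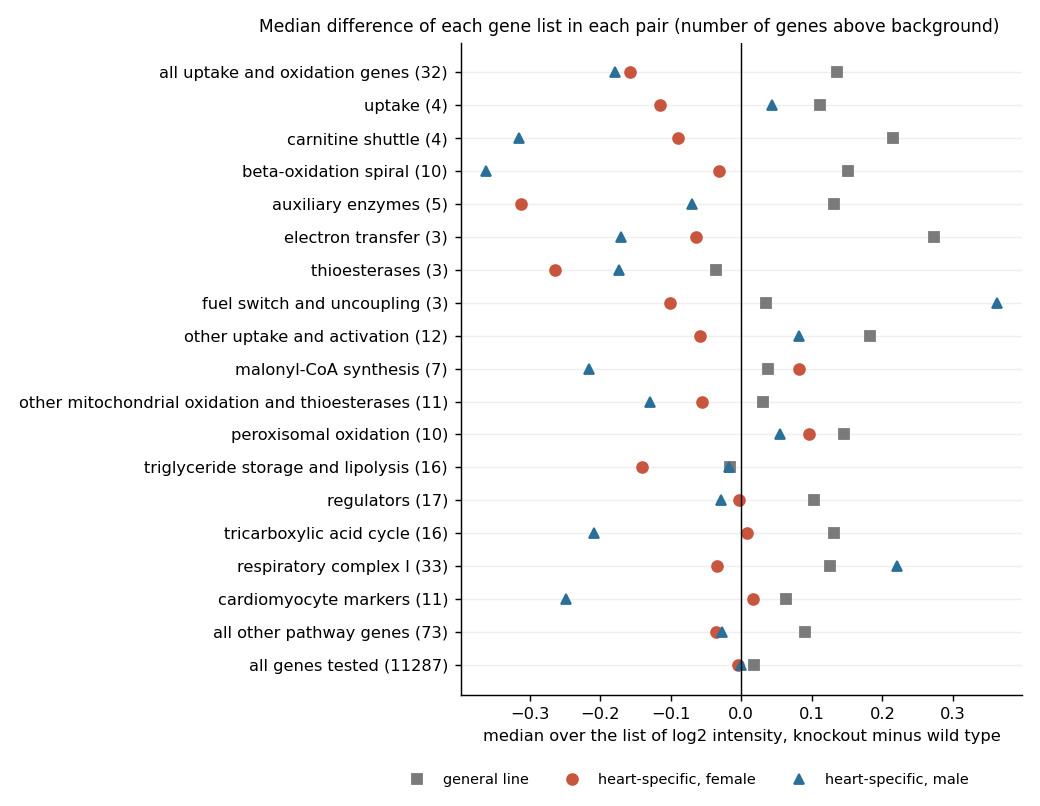
Median log2 difference, knockout minus wild type, of each gene list (rows, number of genes above background in brackets) in the general (grey square), female (red circle) and male (blue triangle) pair. The 32 uptake and oxidation genes have medians of 0.14, -0.16 and -0.18, while all genes tested lie near 0 in each pair.

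Several probes of a gene often disagreed within a pair. Of the 32 genes, 17 had several probes above background, 43 probes in all. The difference had the same sign at every probe of a gene for 8 of the 17 genes in the general pair, for 5 in the female pair and for 14 in the male pair. Among the 4344 genes with several such probes, the same held for 49.6%, 44.3% and 52.0%. In the female pair the sign thus depended on which probe was read for most of the 17, Acadvl (-0.039 and 0.21) and Acads (-0.38 and 0.10) among them. Counted probe by probe, 25 of 58 probes were lower and 4 higher in both heart-specific pairs, against 25.5% of all probes lower.

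**Figure D5:**
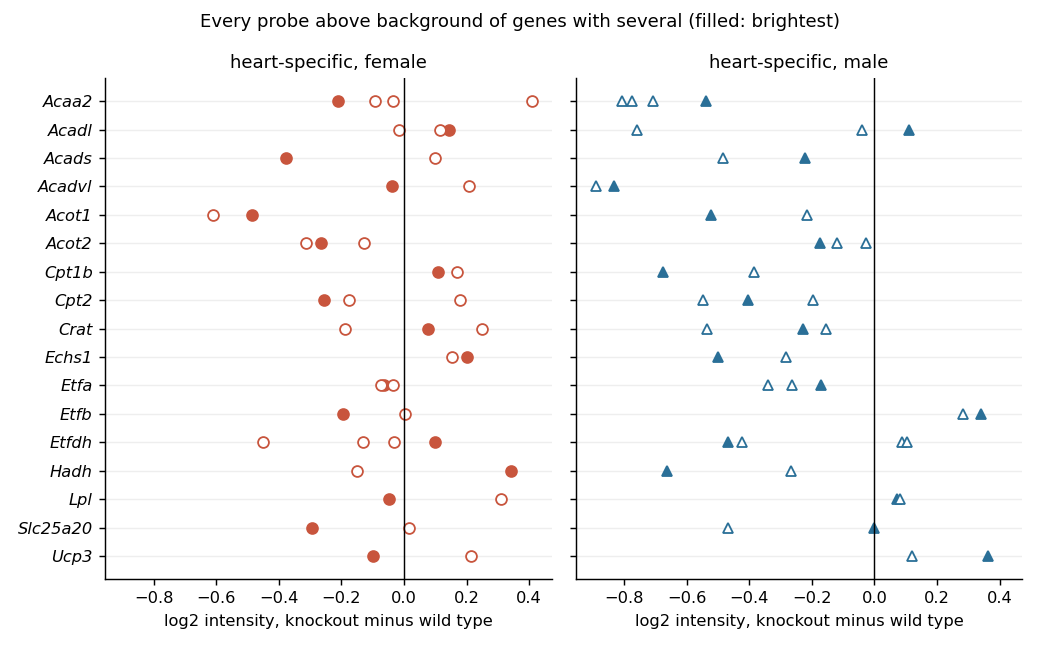
Log2 difference, knockout minus wild type, of every probe above background of the 17 genes with several, in the female (left panel) and male (right panel) heart-specific pair, with the brightest probe filled. In the male panel the probes of 14 genes lie on one side of 0, and in the female panel those of 5.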

How the data were processed

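Single-colour bead arrays of 6 hearts were used, grouped by their titles. GenomeStudio is the tool that the submitters' processing notes name for the deposited intensities, with no version or options given. The authors' intensities are linear, and the sorted values of the 6 columns differ by at most 2.32%, as after quantile normalization, with no sign of background subtraction. A second deposited table, whose 12 columns bear numbers instead of labels, was not used. Log2 of the deposited intensities was analysed without further normalization. By the platform annotation 34885 probes have 1 gene, 18 have several and 10378 have none, and 34807 matched RefSeq gene IDs (GRCm38.p6, used for symbols and promoters, since the sources name no build).

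Background was set on each array at the 95th percentile of 1528 probes for receptor genes (olfactory, vomeronasal or trace amine). Probes above it on at least 2 arrays were kept (17803), and a gene was read from its brightest kept probe. Tests used limma 3.58.1 in R 4.3.3 with the pair as a block, which left 2 residual degrees of freedom over 3 pairs (prior 5.31) and 1 in the fit with a knockout term per line (prior 5.74). Adjusted p-values are Benjamini-Hochberg over 11287 genes, with a threshold of 0.05. Pairs come from the titles, and across genes the knockout's and the wild type's deviations from their genotype's mean correlated in every pair (r = 0.34, 0.33 and 0.35). The fits were tested on simulated data. Other filters, probe means, background corrections, scalings, a fit without the block and leaving out a pair were tried.

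The genes named are all 34 of the set, 12 genes of neighbouring steps named whatever their values (some are not reported here), and any gene of those lists past a test. Genes and lists were chosen with earlier results of these data known, so the counts are no independent support for their direction.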

Additional observations from a re-analysis of the deposited data

How the results depend on the processing

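None of the 32 genes passed a limma test in any of the 3 comparisons under any alternative run. In the heart-specific line, 0 genes of the whole array passed, and 1 passed with no filter, 2 with the mean of a gene's probes, 1 with normexp at an offset of 50 and 1 with an intensity trend. Between lines 9 genes passed, and 21 did with no filter, 26 with the mean of probes, 3 with normexp at an offset of 16, 18 at 50, 4 with cyclic loess and 28 with an intensity trend. Without the replicate block that number was 0, as were those over 3 pairs and in the heart-specific line, and the block changed no call of the 32 genes.

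The 13 genes lower in both heart-specific pairs became 12 to 16 under the other filters, probe means, background corrections and scalings, and the 1 higher became 2 with the mean of probes. Read probe by probe, 25 were lower and 4 higher. With a single heart-specific pair left, 19 to 25 genes were lower, 7 to 12 higher, and the median was -0.16 to -0.18. Cyclic loess gave a heart-specific median of -0.12, against -0.15 in the reported fit. Leaving out the male pair turned the sign of the heart-specific mean in 11 of 32 genes, and leaving out the female pair in 6. Signal over background limits Cd36, Ucp3, Acot2 and Ppara, and to a lesser degree Hadha and Hadh. The top of the scale limits Lpl and Fabp3.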
